A study of Arabidopsis thaliana with 6 samples.

Results

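The endodermal barrier genes described here are 10 Arabidopsis thaliana genes picked by their identifiers out of 38150 genes listed in each library. The rule used no values, but the choice was made with earlier results of these data known. For the Casparian strip they are MYB36 (gene-AT5G57620 in the files), CASP1 (gene-AT2G36100), CASP2 (gene-AT3G11550), ESB1 (gene-AT2G28670) and SGN3 (gene-AT4G20140). For suberin they are CYP86A1 (gene-AT5G58860), CYP86B1 (gene-AT5G23190), GPAT5 (gene-AT3G11430), FAR4 (gene-AT3G44540) and ASFT (gene-AT5G41040). The RNA came from seedlings aged 9 days, labelled as whole plants, of the Col-0 wild type (WT) and of a nid1 knockout mutant in 3 libraries each. Both genotypes had grown with 20 mM nitrate, then without enough nitrate, and were given 0.05 mM nitrate for 6 h before harvest, so no library represents ample nitrate. The sources used here do not say which locus the knockout removes, how many alleles or lines it stands for, or whether seedlings were pooled. Nothing in the labels says that replicates were grown separately, and the spread that the p-values measure may be technical.

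The endodermis is the innermost cortical layer of the root and surrounds the vascular cylinder. Each of its cells first lays down a Casparian strip, a belt of lignin across the wall that stops water and ions from passing between cells. Later the cells line their walls with suberin, a polyester of long fatty acids, fatty alcohols, glycerol and ferulate, which limits uptake across the membrane. Suberin in this layer is known to vary with the supply of mineral nutrients.

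The values are in FPKM, a unit that divides fragments by the length of the transcript and the size of the library, so levels can be set beside each other between genes. FPKM carry no depth, and therefore no interval from counting error is given. FPKM summed to between 730062 and 964273 per library. Of 20533 genes tested with limma on log2(FPKM + 1), 18 (0.0877%) were called at an adjusted p under 0.05. The labelled tissue was checked on marker genes. All 6 leaf genes chosen were detected, but the Rubisco small subunit gene RBCS1A measured 87.4, 100.2 and 104.5 FPKM in WT replicates 1, 2 and 3, and the carbonic anhydrase gene CA1 0.659, 0.763 and 0.675 FPKM. CASP1, a gene of the root endodermis, exceeded RBCS1A by a ratio of between 1.52 and 2.16 in the 3 WT libraries. In nid1 the ratio of CASP1 to RBCS1A was 1.34, 0.701 and 0.768. Of the other leaf genes, LHB1B2 lay at between 130.1 and 186.2 FPKM in WT. PSAL lay there at between 67.0 and 95.4 FPKM, LHCA3 at between 45.9 and 85.2 and GAPA at between 21.9 and 32.8. In nid1 LHB1B2 measured 239.7, 452.4 and 331.7 FPKM, above CASP1 in each library. These levels sit poorly with a label of whole plants, so the tissue behind every level given here is uncertain. In a bulk sample, fewer cells of a type and less RNA per cell cannot be told apart.

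All 10 barrier genes were expressed in all 6 libraries, and none differed between nid1 and WT at an adjusted p under 0.05 (limma, Benjamini-Hochberg over all genes tested). By mean level over the 6 libraries, in FPKM, CASP1 came first at 183.8 ± 14.0 (SD, n = 6), then ASFT at 94.2 ± 12.2, ESB1 at 73.0 ± 8.83, CYP86A1 at 64.0 ± 12.7 and CASP2 at 59.1 ± 3.80. FAR4 at 21.0 ± 1.99, CYP86B1 at 18.3 ± 2.97, GPAT5 at 14.5 ± 2.46, MYB36 at 14.3 ± 1.36 and SGN3 at 7.27 ± 1.51 FPKM followed. Each gene lay above the next in all 6 libraries, except that CYP86A1 lay above CASP2 in 4 of 6 and GPAT5 above MYB36 in 4 of 6, so those neighbours did not differ beyond their spread. Among the genes tested, ranked by mean level, CASP1 stood at percentile 96.1 and SGN3 at percentile 35.1. SGN3 was the one gene of the 10 in the lower part of that ranking.

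**Figure D1:**
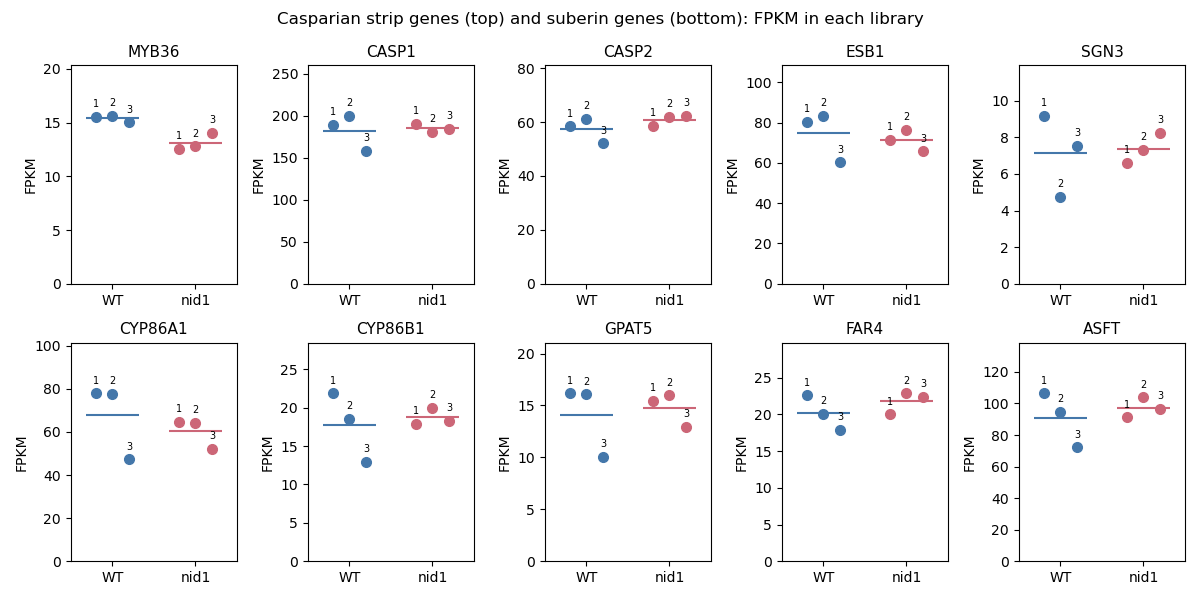
FPKM of each barrier gene (y axis, from 0) in the 3 WT libraries (blue) and the 3 nid1 libraries (red); the digit over a point is the replicate number and the line is the group mean. MYB36 is the one gene whose groups do not overlap. Of all genes tested, 4.79% did not overlap with nid1 lower and 5.50% with nid1 higher. WT replicate 3 is the lowest of the WT libraries for 9 of the 10 genes, SGN3 being the exception.

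The promoters shown are those of ASFT, CYP86B1 and ESB1, the genes among the 10 whose 250 bases before the annotated gene start held the letters ACCNANC on either strand, a form of the site bound by plant MYB factors. ASFT and CYP86B1 were the pair of the 10 with the highest correlation over all 6 libraries, a rank that did not hold without WT replicate 3. A link between the letters and the correlation was not tested. The sequences are from RefSeq TAIR10.1, written 5′ to 3′ in the gene's direction, with each match in capitals. They cover chr5:16431054-16431303 (plus strand) for ASFT, chr5:7805969-7806218 (minus strand) for CYP86B1 and chr2:12302359-12302608 (minus strand) for ESB1.
ASFT: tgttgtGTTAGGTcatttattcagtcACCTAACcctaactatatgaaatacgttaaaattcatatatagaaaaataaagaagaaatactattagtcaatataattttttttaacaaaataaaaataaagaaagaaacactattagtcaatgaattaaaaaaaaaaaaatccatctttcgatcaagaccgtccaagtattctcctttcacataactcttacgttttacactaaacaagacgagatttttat
CYP86B1: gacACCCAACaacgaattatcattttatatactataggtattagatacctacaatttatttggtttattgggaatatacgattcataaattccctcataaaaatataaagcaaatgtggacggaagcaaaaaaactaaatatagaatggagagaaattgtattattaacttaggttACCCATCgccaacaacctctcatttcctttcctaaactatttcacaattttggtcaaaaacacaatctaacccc
ESB1: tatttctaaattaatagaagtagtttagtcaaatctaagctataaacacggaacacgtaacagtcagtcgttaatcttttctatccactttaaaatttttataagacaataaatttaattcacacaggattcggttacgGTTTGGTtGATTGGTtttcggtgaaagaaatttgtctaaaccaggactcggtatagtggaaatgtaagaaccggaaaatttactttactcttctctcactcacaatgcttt
Each of the 3 held 2 matches. In ASFT one match reads forward and the other in reverse, and in ESB1 both read in reverse. A match was found in 3 of 10 barrier genes (30.0%) and in 27.8% of the 27443 protein-coding promoters of the same length, so the share was near that of promoters in general. The other Casparian strip genes held a match in 9 of 20 (45%) and the other suberin genes in 6 of 20 (30%). Differences between these shares were not tested. The match is a description of letters and not evidence of a bound site.

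MYB36 is the transcription factor that switches on the Casparian strip genes in maturing endodermal cells. It lies on chromosome 5 from 23334767 to 23336632 (TAIR10.1, plus strand) in 3 exons. MYB36 measured 15.6, 15.6 and 15.0 FPKM in WT replicates 1, 2 and 3 and 12.5, 12.8 and 14.0 FPKM in nid1 replicates 1, 2 and 3. Every nid1 library lay below every WT library. Of all genes tested, 4.79% did not overlap in this direction and 5.50% in the other. The mean was 15.4 ± 0.338 FPKM in WT and 13.1 ± 0.803 FPKM in nid1 (SD, n = 3 each). The limma log2 fold change was -0.22 (SE 0.108, 95% interval -0.47 to 0.03) and was not called (adjusted p = 0.896). Among the 10 barrier genes MYB36 had the smallest coefficient of variation in WT, at 2.19%.

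CASP1 and CASP2 encode membrane proteins that assemble into the belt-like domain where the strip will form. CASP1 (chromosome 2, 15159591 to 15160799, minus strand) measured 188.6, 199.9 and 158.4 FPKM in WT replicates 1, 2 and 3 and 190.5, 180.9 and 184.5 FPKM in nid1 replicates 1, 2 and 3. The nid1 values lay inside the range of WT. The log2 fold change was 0.03 (SE 0.139, 95% interval -0.29 to 0.35, limma adjusted p = 1.00). CASP2 (chromosome 3, 3638178 to 3639348, plus strand) measured 58.4, 61.3 and 52.1 FPKM in WT and 58.6, 61.8 and 62.3 FPKM in nid1. Again the groups overlapped, with WT replicate 3 the lowest library. Its log2 fold change was 0.09 (SE 0.116, 95% interval -0.18 to 0.36, limma adjusted p = 1.00). The ratio of CASP1 to CASP2 FPKM within a library stayed between 2.93 and 3.26 over the 6 libraries.

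The family members CASP4 and CASP5 were lower than both. CASP4 measured 20.4, 22.2 and 15.7 FPKM in WT and 21.5, 26.3 and 27.2 FPKM in nid1, and CASP5 2.81, 4.98 and 2.55 FPKM in WT and 3.33, 5.18 and 6.44 FPKM in nid1. CASP4 and CASP5 had the largest positive log2 fold changes among the other strip genes, 0.36 (SE 0.160) and 0.43 (SE 0.259), and neither was called (limma adjusted p = 0.833 and 1.00). In both the groups overlapped, and the order CASP1, CASP2, CASP4, CASP5 held in each of the 6 libraries. The closest match of the CASP1 transcript was CASP2, with 68.7% identity over 504 bases, and that of CASP2 was CASP4, with 79.9% over 627 bases. AT2G36090 on the other strand shares 49 of the 904 exonic bases of CASP1.

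ESB1 encodes a dirigent-domain protein that helps to position lignin in the strip. It lies on chromosome 2 from 12300265 to 12302358 (minus strand). ESB1 measured 80.3, 83.4 and 60.3 FPKM in WT replicates 1, 2 and 3 and 71.5, 76.6 and 65.8 FPKM in nid1. The nid1 values lay within the WT range, and the log2 fold change was -0.05 (SE 0.155, 95% interval -0.41 to 0.30, limma adjusted p = 1.00). AT2G28671 on the other strand shares 1459 of the 1731 exonic bases of ESB1 and was listed at between 0.844 and 1.38 FPKM. Whether counting used strand is not stated in the labels, so the division between these genes is uncertain.

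SGN3, named GSO1 in RefSeq, encodes the leucine-rich repeat receptor kinase that surveys the integrity of the strip by sensing peptides from the stele. It lies on chromosome 4 from 10883921 to 10888270 (plus strand). SGN3 measured 9.18, 4.74 and 7.55 FPKM in WT replicates 1, 2 and 3 and 6.63, 7.31 and 8.23 FPKM in nid1. WT replicate 2 was low and WT replicate 1 high, so that the WT libraries enclosed all of nid1. The coefficient of variation in WT was 31.4%, the largest of the 10, and the log2 fold change was 0.08 (SE 0.212, 95% interval -0.41 to 0.57, limma adjusted p = 1.00). Without WT replicate 2 the log2 fold change was -0.16. AT4G20150 on the other strand shares 337 of the 4274 exonic bases of SGN3 and was listed at 392.1 FPKM in WT replicate 2, its highest library, and at 300.8 FPKM in WT replicate 3, its next highest. The part of that overlap in the values of SGN3 was not tested. The related receptor gene GSO2 was lower, at 1.15, 0.811 and 0.714 FPKM in WT and 0.922, 1.61 and 1.46 FPKM in nid1.

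The 20 other genes of the Casparian strip included regulators, peroxidases, an NADPH oxidase and the exocyst subunit EXO70A1. Of these, 0 were called in either direction, where 0.0877% of all genes tested were called. None had an unadjusted p under 0.05, which held for 6.21% of all genes tested. Their median log2 fold change was -0.01, beside 0.000218 over all genes tested, with 10 above 0 and 10 below. The smallest p-values belonged to CASP4, AT4G11290, GSO2, PER72, CASP5 and TPST. AT4G11290, a peroxidase-family gene, measured 194.2, 219.7 and 181.7 FPKM in WT and 175.9, 151.6 and 156.0 FPKM in nid1, so that the groups did not overlap, and was not called (log2 fold change -0.30, limma adjusted p = 0.863). The peroxidase gene PER72 likewise did not overlap (nid1 lower, as for 4.79% of all genes tested), with means of 74.8 ± 4.12 and 65.1 ± 3.20 FPKM (limma adjusted p = 0.974). TPST, which encodes the enzyme that adds sulfate to tyrosines of secreted peptides, measured 11.9 ± 0.688 FPKM in WT and 13.6 ± 1.60 in nid1 (limma adjusted p = 1.00). PER64, the peroxidase gene best known from the strip, measured 59.9, 60.1 and 47.3 FPKM in WT and 54.2, 58.0 and 58.1 FPKM in nid1. SHR and SCR, the transcription factor genes that specify the endodermis, measured 9.17 ± 1.16 and 8.43 ± 2.11 FPKM in WT and 9.30 ± 0.956 and 7.32 ± 0.263 FPKM in nid1.

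**Figure D2:**
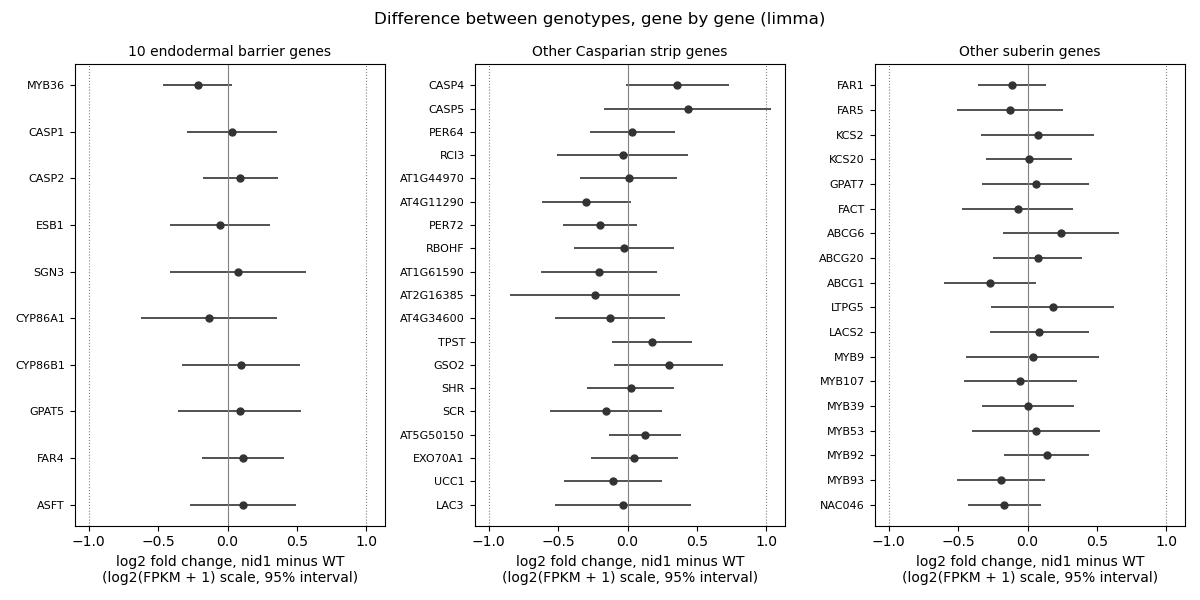
Log2 fold change of nid1 minus WT (x axis, log2(FPKM + 1) scale) with its unadjusted 95% interval for the 10 barrier genes (left), 19 of the 20 other Casparian strip genes (middle) and the 18 tested of 20 other suberin genes (right); dotted lines mark 2-fold. The intervals of all 10 barrier genes hold 0, and they reach from -0.62 to 0.57 at the widest.

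The 5 suberin genes encode enzymes of suberin synthesis. CYP86A1 and CYP86B1 are cytochrome P450 enzymes that hydroxylate the end of fatty acid chains, CYP86B1 those of very long chains. CYP86A1 (chromosome 5, 23765791 to 23768111, minus strand) measured 78.0, 77.8 and 47.3 FPKM in WT replicates 1, 2 and 3 and 64.6, 64.2 and 52.1 FPKM in nid1. Its WT libraries lay both above and below those of nid1. The log2 fold change was -0.14 (SE 0.211, 95% interval -0.62 to 0.35, limma adjusted p = 1.00), and without WT replicate 3 it was -0.37 (limma adjusted p = 0.924). CYP86B1 (chromosome 5, 7803141 to 7805968, minus strand) measured 21.9, 18.5 and 12.98 FPKM in WT and 17.9, 20.0 and 18.3 FPKM in nid1. The groups overlapped, with WT replicate 1 the highest and WT replicate 3 the lowest library. The log2 fold change was 0.10 (SE 0.183, 95% interval -0.33 to 0.52, limma adjusted p = 1.00). CYP86A1 exceeded CYP86B1 by a ratio of between 2.85 and 4.20 in the 6 libraries.

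GPAT5 is an acyltransferase that joins acyl chains to glycerol for suberin. GPAT5 (chromosome 3, 3595694 to 3597952, plus strand) measured 16.2, 16.1 and 10.1 FPKM in WT replicates 1, 2 and 3 and 15.4, 16.0 and 12.96 FPKM in nid1. WT replicates 1 and 2 lay just above the nid1 range and WT replicate 3 below it. The log2 fold change was 0.09 (SE 0.192, 95% interval -0.36 to 0.53, limma adjusted p = 1.00). Its closest relative by transcript, GPAT7 (78.7% identity over 1487 bases), was lower in each library, at between 4.68 and 6.97 FPKM.

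FAR4 is a fatty acyl reductase that makes the primary alcohols of suberin. FAR4 (chromosome 3, 16123426 to 16128030, plus strand) measured 22.6, 20.1 and 17.8 FPKM in WT replicates 1, 2 and 3 and 20.0, 22.9 and 22.4 FPKM in nid1. The groups overlapped and the log2 fold change was 0.11 (SE 0.128, 95% interval -0.19 to 0.40, limma adjusted p = 1.00). The related reductase gene FAR1 was higher in each library, at between 45.9 and 52.4 FPKM, while FAR5 lay close to FAR4 in WT, with a ratio of FAR4 to FAR5 of 1.00, 1.03 and 0.960, and in nid1 of 1.38, 1.06 and 1.14. ASFT is the transferase that adds ferulate to hydroxylated fatty acids, linking the aliphatic and aromatic parts of suberin. ASFT (RWP1 in RefSeq; chromosome 5, 16431304 to 16433305, plus strand) measured 106.5, 94.7 and 72.1 FPKM in WT and 91.2, 103.8 and 96.8 FPKM in nid1. WT replicates 1 and 3 were its highest and lowest libraries. Genes on the other strand share 63 of the 1823 exonic bases of ASFT and 198 of the 2936 of FAR4, the latter listed at 0 in all 6 libraries. The log2 fold change was 0.11 (SE 0.164, 95% interval -0.27 to 0.49, limma adjusted p = 1.00).

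**Figure D3:**
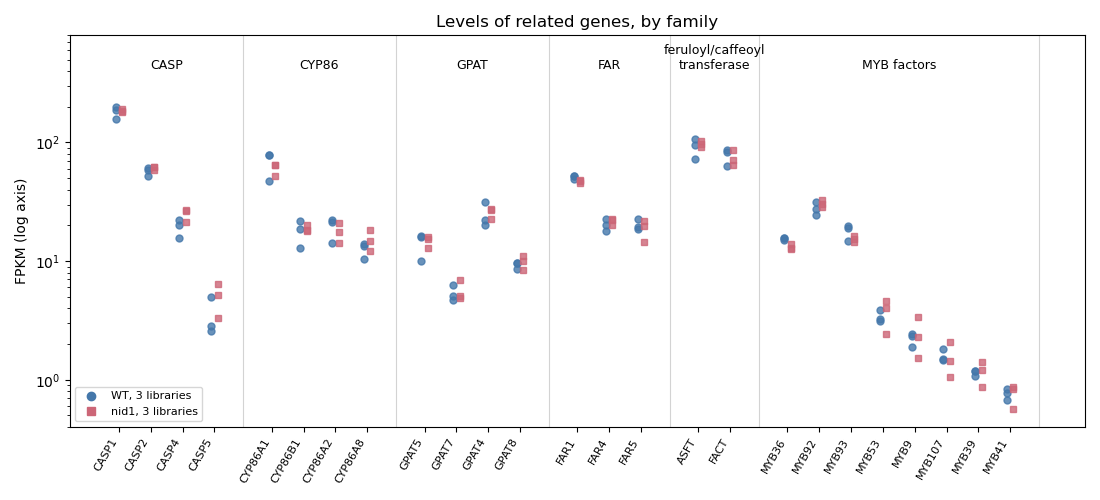
FPKM (log y axis) of the barrier genes beside relatives, by family, in the 3 WT libraries (blue circles) and the 3 nid1 libraries (red squares). CASP1, CASP2, CASP4 and CASP5 descend from 183.8 FPKM for CASP1, and among the MYB genes MYB92 and MYB93 lie nearest MYB36.

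Of 20 other suberin genes, 18 passed the filter and 0 were called in either direction, where 0.0877% of all genes tested were called. None had an unadjusted p under 0.05, which held for 6.21% of all genes tested. The median log2 fold change was 0.03, with 11 above 0 and 7 below. The 2 that did not pass were the transporter gene ABCG2, listed at no more than 0.0301 FPKM, and MYB41, listed at between 0.563 and 0.873 FPKM. The smallest p-values belonged to ABCG1, NAC046, MYB93, ABCG6, FAR1 and MYB92. ABCG1, of a transporter family that exports suberin precursors, measured 18.0 ± 2.15 FPKM in WT and 14.8 ± 2.09 in nid1 (log2 fold change -0.27, limma adjusted p = 0.932), and its relative ABCG6 17.8 ± 3.04 and 21.3 ± 4.35 FPKM (log2 fold change 0.24, limma adjusted p = 1.00). NAC046, a transcription factor gene, measured 29.3 ± 1.96 and 26.0 ± 1.56 FPKM, and the reductase gene FAR1 51.0 ± 1.92 and 47.1 ± 1.15 FPKM. For both of these every nid1 library lay below every WT library, as for 4.79% of all genes tested, and neither was called (limma adjusted p = 1.00 for both).

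The MYB factors known to promote suberin differed in level by more than a factor of 10. MYB92 was highest of them, with means of 27.8 ± 3.50 (WT) and 30.5 ± 2.35 FPKM (nid1; SD, n = 3 each), followed by MYB93 at 17.8 ± 2.61 and 15.4 ± 0.919 FPKM. MYB53 was at 3.42 ± 0.368 and 3.70 ± 1.15 FPKM, MYB9 at 2.23 ± 0.297 and 2.39 ± 0.924 FPKM, MYB107 at 1.59 ± 0.192 and 1.53 ± 0.527 FPKM and MYB39 at 1.15 ± 0.0570 and 1.16 ± 0.267 FPKM. None of these 6 was called (limma adjusted p = 1.00 for each).

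No gene of the pathways that supply or parallel these barriers was called. Of all genes tested, 0.0877% were called and 6.21% had an unadjusted p under 0.05. At these shares a list this short would hold few such genes or none. Among 14 genes of the monolignol pathway, which makes the precursors of lignin, 0 were called and 0 had an unadjusted p under 0.05, with a median log2 fold change of -0.00456. Of these, C4H, which hydroxylates cinnamate, measured 874 ± 238 FPKM in WT and 750 ± 78.1 in nid1, with WT replicate 2 at 1149 FPKM. PAL2, of the entry step, measured 114.0 ± 15.9 and 100.9 ± 7.59 FPKM, 4CL1, which activates coumarate, 319 ± 20.8 and 352 ± 30.0 FPKM, and F5H1, of the syringyl branch, 74.3 ± 17.0 and 84.4 ± 10.8 FPKM. The reductase gene CCR1 measured 146.8 ± 13.5 and 135.8 ± 12.1 FPKM and the dehydrogenase gene CAD5 261 ± 48.3 and 235 ± 10.5 FPKM (limma adjusted p = 1.00 for all 6). Cutin and wax genes of the shoot epidermis, a related polyester and its coat, had 9 tested members of 10, with 0 called, 0 at an unadjusted p under 0.05 and a median log2 fold change of 0.07. CYP96A15 was listed at 0 in all 6 libraries. CER2, of wax chain elongation, measured 12.5 ± 4.03 FPKM in WT and 15.3 ± 1.54 in nid1, the hydroxylase gene CYP86A8 12.6 ± 1.88 and 15.1 ± 3.01 FPKM, and CER1, of alkane synthesis, 1.99 ± 0.289 and 1.67 ± 0.393 FPKM. BDG1, CYP86A2 and GPAT8 had log2 fold changes of 0.11, -0.12 and 0.07 (limma adjusted p = 1.00 for all 6 genes).

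The coefficient of variation of the barrier genes was larger in WT than in nid1 for 9 of the 10, with MYB36 the exception, and 74.2% of all genes tested shared that direction. It ran from 2.19% to 31.4% in WT and from 2.62% to 11.7% in nid1. WT replicate 3 was the lowest of all 6 libraries for 8 of the 10, that is for all but MYB36 and SGN3, while it was the lowest for 22.1% of all genes tested. In WT replicate 3 the median deviation from a gene's own 6-library mean, on the log2(FPKM + 1) scale, was -0.40 for the 5 suberin genes, -0.18 for the 5 Casparian strip genes and -0.03 for all genes tested. Some lists of other cell types and pathways were low there too, with medians of -0.26 for root hair genes, -0.21 for cutin and wax genes and -0.16 for monolignol genes. The medians there were -0.11 for the other Casparian strip genes and -0.09 for the other suberin genes. For xylem, root cap and phloem genes they were -0.11, -0.10 and 0.03. Leaf genes were at -0.70 there and at -0.66 in WT replicate 1. WT replicate 3 was the lowest library for 8 of the 20 other Casparian strip genes, 7 of the 14 monolignol genes and 3 of the 9 cutin and wax genes. Of the 18 other suberin genes 6 were lowest in WT replicate 3 and 7 in nid1 replicate 1, and of the 6 root hair genes 3 were lowest in WT replicate 3 and 3 in WT replicate 2. Without WT replicate 3 the median log2 fold change of the 10 barrier genes was -0.08, in place of 0.08 with all libraries, 3 of 10 lay above 0 in place of 7 of 10, and 0 were called.

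**Figure D4:**
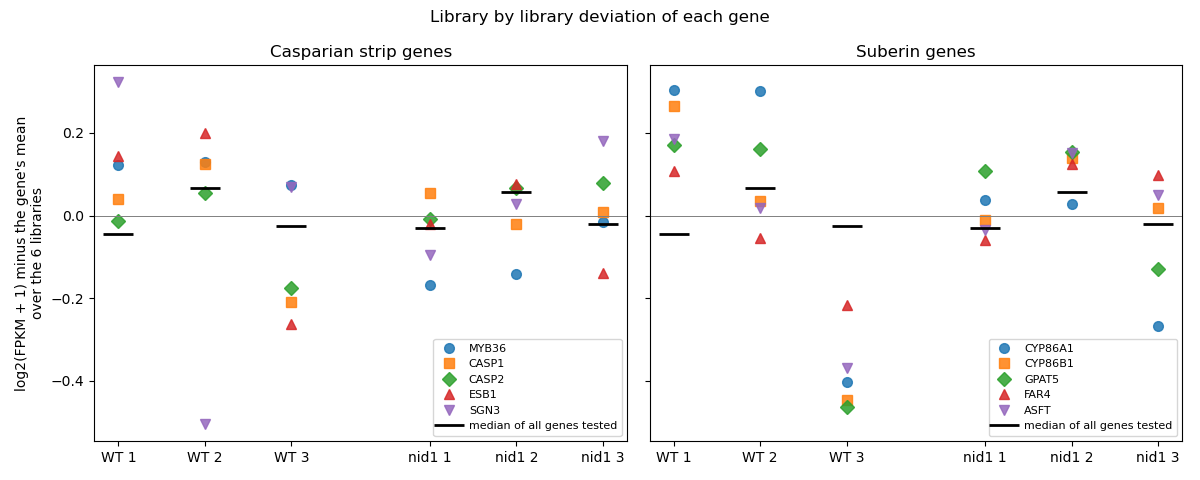
Deviation of each gene from its own mean over the 6 libraries (y axis, log2(FPKM + 1) units) in each library, for the Casparian strip genes (left) and the suberin genes (right); black bars are the median of all 20533 genes tested. All 5 suberin genes fall below 0 in WT replicate 3, with a median of -0.40, while MYB36 and SGN3 do not.

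Across the 6 libraries, Pearson correlations of log2(FPKM + 1) between the 5 suberin genes were all above 0 in their 10 pairs, with a median of 0.88. The most alike pair was CYP86B1 and ASFT at 0.99, and the least alike CYP86A1 and FAR4 at 0.41. The strip genes were less uniform, with a median of -0.04 over 10 pairs. CASP1, CASP2 and ESB1 had correlations of between 0.59 and 0.82 with one another, while those of MYB36 with its 9 partners ran from -0.27 to 0.21. These values are descriptions over 6 points that share library scaling. The height of the suberin correlations and the contrast of CASP1, CASP2 and ESB1 with MYB36 depend on WT replicate 3. No median over the strip pairs was computed without that library. Without it the median over the 10 suberin pairs was 0.49, with a lowest value of -0.29 and 8 pairs above 0. CASP1 then had correlations of -0.24 with CASP2 and 0.54 with ESB1, CASP2 and ESB1 one of -0.25, and MYB36 reached 0.57 with CASP1 and 0.55 with ESB1. The most alike pair of the 10 genes was then ESB1 and CYP86A1 at 0.95, with CYP86B1 and ASFT at 0.94. Over all genes tested, those most like CASP1 were AT2G22482, AT3G25930, PUB29, AT1G78830 and AT1G06923, with correlations of 0.99 to 1.00, and 254 genes reached 0.9. Those most like GPAT5 were GRP23, ROH1, SYP123, XXT5 and AT2G37585, with correlations of 0.99 to 1.00, and 300 genes reached 0.9. All of these named genes were lowest in WT replicate 3, and their correlations without it were not computed. AT2G22482 was low, at no more than 2.67 FPKM in any library and 0.000114 FPKM in WT replicate 3.

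Levels of marker genes of other cell types are given beside those of the barrier genes. The summed level of the 10 barrier genes was 597, 592 and 454 FPKM in WT replicates 1, 2 and 3 and 549, 566 and 537 FPKM in nid1. The nid1 sums lay within the WT range. Summed levels of 6 root hair genes ran from 193 to 316 FPKM in WT and from 255 to 291 FPKM in nid1. Those of 3 root cap genes ran from 5.74 to 7.50 FPKM and from 5.19 to 7.03 FPKM, and those of 3 phloem genes from 142.5 to 163.8 FPKM and from 161.9 to 205.8 FPKM. The 5 xylem genes summed to between 84.9 and 126.6 FPKM in WT and between 74.9 and 91.7 FPKM in nid1. All 5 lay below 0 in log2 fold change, as did 10257 of the 20533 genes tested. The xylem gene XCP2 had an unadjusted p under 0.05, as had 6.21% of all genes tested. It also lay lower in every nid1 library than in every WT library, as did 4.79% of all genes tested. The summed levels of all 4 of these lists overlapped between the genotypes. The 6 leaf genes differed in range: they summed to 362, 501 and 370 FPKM in WT and 631, 1121 and 923 FPKM in nid1, each of the 6 lay higher in every nid1 library than in every WT library (5.50% of all genes tested did so), and all 6 had an unadjusted p under 0.05 (6.21% of all genes tested did), while 0 were called (median log2 fold change 1.05, smallest limma adjusted p = 0.209). Whether that shift has a part in the values of the barrier genes was not tested.

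**Figure D5:**
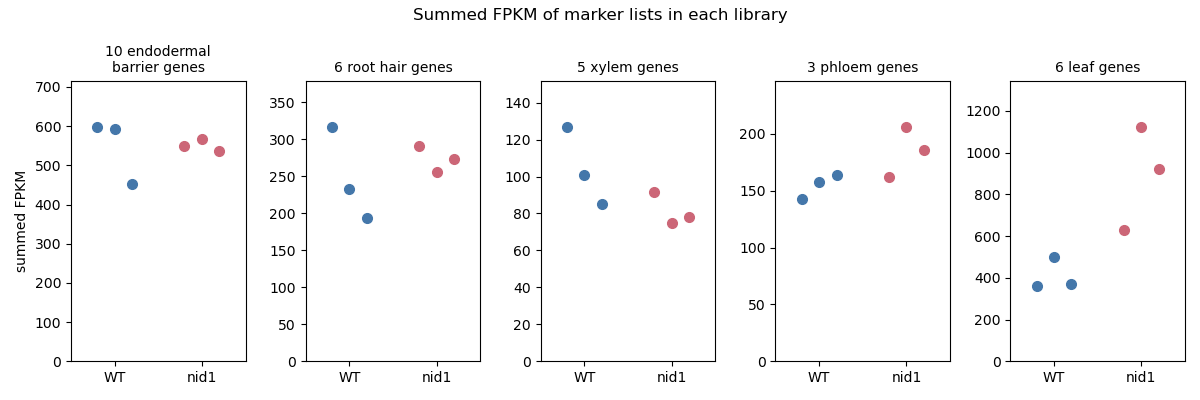
Summed FPKM (y axes from 0, each with its own scale) of the 10 barrier genes and of marker lists in the 3 WT (blue) and 3 nid1 (red) libraries, in replicate order within each genotype. The barrier genes lie between 454 and 597 FPKM in both genotypes, while the leaf genes lie between 362 and 501 FPKM in WT and between 631 and 1121 FPKM in nid1.

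The size of difference that these libraries leave room for can be read from the intervals. Over the 10 barrier genes the unadjusted 95% intervals of the log2 fold change reached down to -0.62 (CYP86A1, a ratio of 0.650) and up to 0.57 (SGN3, a ratio of 1.48), and all 10 held 0. On the log2(FPKM + 1) scale the intervals of 9 of the 10 lay within 1.5-fold in either direction, CYP86A1 being the exception. SGN3 lay close to that limit. Its SE was 0.212 on this scale and 0.240 with a pseudocount of 0.1, so its place among the 9 depends on the scale. A 2-fold change in any of the 10 thus lay outside its interval on the log2(FPKM + 1) scale, while smaller differences, such as that of MYB36, could not be told from 0 with 3 libraries a genotype. The 10 barrier genes and the other 4 pathway lists held no call with any 1 library left out.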

How the data were processed

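Per the labels' protocols, the 6 libraries came from a stranded mRNA kit with paired reads of 101 bp. The authors deposited FPKM, 1 value per gene and library, and the submitters' processing notes name bcl2fastq 2.20, Bowtie, TopHat2 2.0.13 and Cuffdiff 2.2.1 without roles. None of these sources states the genome build, strand setting or library scaling. Of 38150 identifiers, 37932 equal gene identifiers of RefSeq TAIR10.1, the source of all coordinates and sequences here. Symbols are those in common use, and 14 of 97 listed genes have another or none in RefSeq, among them F5H1 (FAH1 there). A gene was kept if 3 or more libraries reached 1 FPKM, which left 20533, all 10 barrier genes included. With limma 3.58.1 in R 4.3.3 (eBayes with trend, two-sided), log2(FPKM + 1) in nid1 was compared with WT. The scale understates changes of low genes. Intervals are limma's, unadjusted.

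All 10 barrier genes are named, with up to 6 genes of smallest p in each of 4 pathway lists and the 5 genes most correlated with CASP1 and with GPAT5. Other genes of the lists were named after their values were seen. The barrier genes, lists and tests were chosen with earlier results of these data known. Lists come from textbook knowledge, and in the Casparian strip list 6 loci are given by identifier since RefSeq gives them no symbol. PER72 has no symbol there either and is given by its common name. LTPG5 was entered in the suberin list under another family member's name and kept in its counts and median, so its place there is uncertain. Transcripts were compared with BLAST 2.17.0. The alternatives left out 1 library in turn, added the replicate number as a block, used a pseudocount of 0.1 or 0.5, filtered at 0.1 FPKM or not at all, or rescaled libraries by median ratios. Depth is unknown from FPKM. One gene of the Casparian strip list entered its counts and median and is not reported here on its own.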

Additional observations from a re-analysis of the deposited data

How the results depend on the processing

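No barrier gene and no gene of the other 4 pathway lists was called under any of 12 alternatives. MYB36 stayed below 0 in all 12, with log2 fold changes of -0.26 to -0.19, CYP86A1 at -0.37 to -0.02, CASP2 at 0.02 to 0.14 and FAR4 at 0.03 to 0.19. Uncalled values changed sign when 1 library was left out. With 1 library left out they ranged from -0.068 to 0.099 for CASP1, -0.20 to 0.032 for ESB1, -0.16 to 0.26 for SGN3, -0.10 to 0.25 for CYP86B1, -0.12 to 0.19 for GPAT5 and -0.047 to 0.23 for ASFT. CASP1, CYP86B1, GPAT5 and ASFT lay below 0 without WT replicate 3 and SGN3 without WT replicate 2. ESB1 lay above 0 without WT replicate 1, WT replicate 2 or nid1 replicate 3. Fewer samples entered these fits. The count called over all genes was 18, between 8 (without WT replicate 3, and without nid1 replicate 2) and 35 (without nid1 replicate 1) with 1 library left out, and 9 and 10 without WT replicate 1 and nid1 replicate 3. With the replicate block it was 70, with 0 barrier genes among them. Deviations of same-numbered libraries correlated at -0.01, 0.13 and 0.30, and those of differently numbered libraries at between -0.38 and 0.22. These values do not settle whether the samples are paired. Nothing in the labels ties the numbers between genotypes, so they are not taken to pair the samples. Without reads or depth, counting error cannot be separated from the spread between libraries.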

Other observations

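Further genes of the suberin and Casparian strip lists were listed above 0 in all 6 libraries. FACT, which makes caffeate esters of fatty alcohols, stood at 87.1, 83.8 and 63.4 FPKM in the WT replicates 1, 2 and 3, against 87.0, 71.3 and 64.2 FPKM in nid1. The lipid transfer protein gene LTPG5 entered the suberin list under another family member's name, so its place there is uncertain. It had levels of 214.3, 188.1 and 141.8 FPKM across WT libraries, while those of nid1 held 237.3, 191.5 and 183.3 FPKM, again lowest in WT replicate 3. Of the ketoacyl-CoA synthases that lengthen acyl chains, KCS20 ranged from 31.6 to 40.2 FPKM and KCS2 from 4.88 to 7.17 FPKM. In the wall of the strip, the uclacyanin gene UCC1 averaged 46.0 ± 5.96 FPKM in WT libraries and 42.7 ± 5.97 FPKM in those of nid1 (SD, n = 3 each). For the laccase gene LAC3 the means were 27.1 ± 6.74 and 26.1 ± 4.38 FPKM. In each of these 6 genes the genotypes overlapped.

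The ratio of CASP2 to MYB36 within a library lay at 3.75, 3.92 and 3.47 for WT replicates 1, 2 and 3, against 4.67, 4.83 and 4.44 in nid1. The ratio of CASP1 to MYB36 was 12.1, 12.8 and 10.5 in WT and 15.2, 14.1 and 13.1 in nid1. All nid1 libraries lay above all WT libraries for both ratios, which share MYB36 as denominator and were picked after the values were seen, so no test is given.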
